A study of Rattus norvegicus with 10 samples.

Results

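Arc, Homer1, Bdnf and Nptx2 are 4 genes whose products act at synapses and whose transcription is known to rise after neuronal activity. Their levels were read on 1 array per animal in prefrontal tissue from 10 males of the inbred Lewis rat strain. Members were all probe sets (groups of array probes summarised to 1 value) that the platform annotation gives exactly 1 of these symbols. The rule found 8 of 31099 probe sets, for 3 of the 14218 genes named in this way: 1 for Arc, 5 for Homer1, 2 for Bdnf and 0 for Nptx2. A probe set annotated to both Hax1 and Homer1 was left out by the rule. No statement on the Nptx2 level is therefore made.

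All rats weighed 200 to 250 g, were housed singly, received no treatment and carried no stated genetic change. They belonged to a set of 40 rats given behavioural tests, and tissue was taken 6 days after the last of these. The dissected piece held Fr1 and Fr2, frontal motor fields, forward of 4.0 mm anterior to bregma and without the olfactory bulb. The rats form 1 group, and the labels give each a score for startle, locomotion, sugar feeding and prepulse inhibition (the damping of startle by a weak tone beforehand), and 7 of them one for the plus maze. The labels state no units for these scores. In such bulk tissue, fewer cells of a type and less RNA per cell cannot be told apart.

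Activity-induced genes are switched on when calcium entry and kinase signalling in a firing neuron reach transcription factors already bound at their promoters. Arc is an immediate early gene whose mRNA travels to dendrites and whose protein promotes the removal of AMPA-type glutamate receptors from the synapse. Homer1 encodes scaffold proteins that tie metabotropic glutamate receptors to intracellular calcium channels, and its short, activity-induced form lacks the domain by which the long forms link together. Bdnf encodes a secreted neurotrophin that signals through the receptor TrkB and is transcribed from several promoters with unequal response to activity. Nptx2 encodes a secreted pentraxin that gathers AMPA receptors.

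RefSeq promoter windows of the GRCr8 assembly were matched by symbol for Homer1 (1 window), Bdnf (6 windows) and Nptx2 (1 window). Arc is named only. The windows below are shown because levels of Homer1 and Bdnf moved together across rats, and they are those of Bdnf that hold an AP-1 match or a CRE core, with that of Homer1. Each holds the 250 bases before an annotated start, on the plus strand, and capitals mark matches to the searched motifs other than the E-box.
Homer1, chr2:26278762-26279011: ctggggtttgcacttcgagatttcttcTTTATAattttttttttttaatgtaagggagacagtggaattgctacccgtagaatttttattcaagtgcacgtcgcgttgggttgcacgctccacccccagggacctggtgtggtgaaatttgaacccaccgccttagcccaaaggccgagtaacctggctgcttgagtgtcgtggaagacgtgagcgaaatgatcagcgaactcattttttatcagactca
Bdnf window 3, chr3:116621721-116621970: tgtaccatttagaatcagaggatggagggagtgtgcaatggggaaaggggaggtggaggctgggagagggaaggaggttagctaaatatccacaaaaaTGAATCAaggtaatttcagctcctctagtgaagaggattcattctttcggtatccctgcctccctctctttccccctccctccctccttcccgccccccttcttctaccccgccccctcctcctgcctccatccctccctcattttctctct
Bdnf window 4, chr3:116637608-116637857: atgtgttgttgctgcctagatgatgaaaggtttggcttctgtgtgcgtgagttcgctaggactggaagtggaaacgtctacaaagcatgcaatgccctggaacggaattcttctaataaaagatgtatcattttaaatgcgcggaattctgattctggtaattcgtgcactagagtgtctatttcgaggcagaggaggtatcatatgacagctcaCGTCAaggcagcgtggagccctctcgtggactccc
Windows of 300 bases, with 50 bases after the start, were searched on both strands for the CRE (TGACGTCA), its core (TGACG, contained in the full CRE), AP-1 (TGANTCA), the CArG box, the EGR site (GCGGGGGCG), the E-box (CANNTG) and the TATA box (TATAAA). Bdnf window 4 held the CRE core on the reverse strand, at position -35 relative to the start. The core was present in 21.2% of 33469 rat windows. Bdnf window 3 held an AP-1 match, which 7.33% of windows had. The Homer1 window held a reverse TATA box match (14.2% of windows) at position -223, and an E-box (72.1%). The full CRE was found in 1.83% of windows, the CArG box in 1.64% and the EGR site in 2.73%. Of the windows not printed, that of Nptx2 held an EGR site at -112 and a CRE core at -90, and Bdnf window 2 a reverse TATA box match at -250. These are matches of letters and not measured binding.

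Array medians were alike, with log2 values from 3.92 to 4.02, but they do not cover the higher levels at which the tested members lie. There, a further quantile normalization moved the Homer1 probe set 1368318_at from 11.42 to 11.30 in rat 2. In rat 3 it moved from 11.28 to 11.39. Neuronal markers were abundant: Snap25, a release protein, had a median log2 level of 14.5 and Slc17a7, the cortical glutamate vesicle transporter, 12.7. Of the annotated cortical layer markers, 5 of 5 superficial ones, such as Cux2 (8.79 to 9.35), and 5 of 6 deep ones, such as Fezf2 (9.11 to 9.46), passed the filter described below, and Ntsr1 (2.25 to 2.30) did not. Of the choroid plexus and ependyma markers 0 of 5 passed. Of the olfactory bulb markers 1 of 4 passed, Cdhr1 (4.29 to 4.54), while Th, Eomes and Doc2g did not. Striatal markers differed widely between rats, with Drd1, a dopamine receptor, from 5.79 to 9.60. The mean centred log2 level of 9 striatal markers ran from -0.62 to 1.46 and was highest in rats 7, 4 and 10. That of 13 myelin markers ran from -0.60 to 0.49. Of the members, 7 probe sets passed the filter, which kept the 50% of highest mean. The Bdnf probe set 1368678_at (3.32 to 3.46) did not pass.

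Arc and 1 of the Homer1 probe sets had the widest spans between rats among the members. The Arc probe set 1387068_at read, on the log2 scale, 8.82, 9.72, 11.18, 10.30, 8.92, 8.44, 9.66, 10.83, 9.35 and 8.76 in rats 1 to 10. Rats 3 and 8 were highest and rats 6 and 10 lowest. The mean was 9.60 with an SD of 0.925 (n = 10), and the span of 2.74 log2 units is 6.68-fold.

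The 5 Homer1 probe sets did not vary alike. Probe set 1370997_at read 7.70, 8.00, 9.47, 8.22, 7.36, 7.57, 6.63, 8.91, 8.41 and 7.19 in rats 1 to 10. As for Arc, rats 3 and 8 were highest, and here rats 7 and 10 were lowest. Its span was 2.84 log2 units, or 7.17-fold, with an SD of 0.843. Probe set 1370454_at read 10.88, 11.02, 11.16, 10.61, 10.39, 10.65, 10.14, 10.44, 10.65 and 10.08, a span of 1.08 log2 units or 2.11-fold. Rats 3 and 2 were highest and rats 10 and 7 lowest.

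The other 3 Homer1 probe sets moved within narrow limits. Probe set 1370656_a_at, the Homer1 set of highest mean, read 11.66, 11.87, 11.67, 11.64, 11.37, 11.70, 11.33, 11.57, 11.69 and 11.43 in rats 1 to 10, a span of 0.55 log2 units or 1.46-fold. Probe set 1368319_a_at ran from 9.32 in rat 7 to 10.05 in rat 2 (1.65-fold), and 1368318_at from 11.06 in rat 7 to 11.42 in rat 2 (1.28-fold). All 3 were highest in rat 2 and lowest in rat 7. After a further quantile normalization 1368318_at and 1370656_a_at were highest in rat 3 instead. The form of Homer1 that each probe set reads was not given in the sources used here.

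Bdnf also stayed within a narrow range. Probe set 1368677_at read 9.06, 9.19, 9.06, 8.82, 8.71, 8.78, 8.68, 8.87, 8.92 and 8.61 in rats 1 to 10, a span of 0.58 log2 units or 1.50-fold, with an SD of 0.189. Rats 1, 2 and 3 were highest and rats 7 and 10 lowest.

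**Figure D1:**
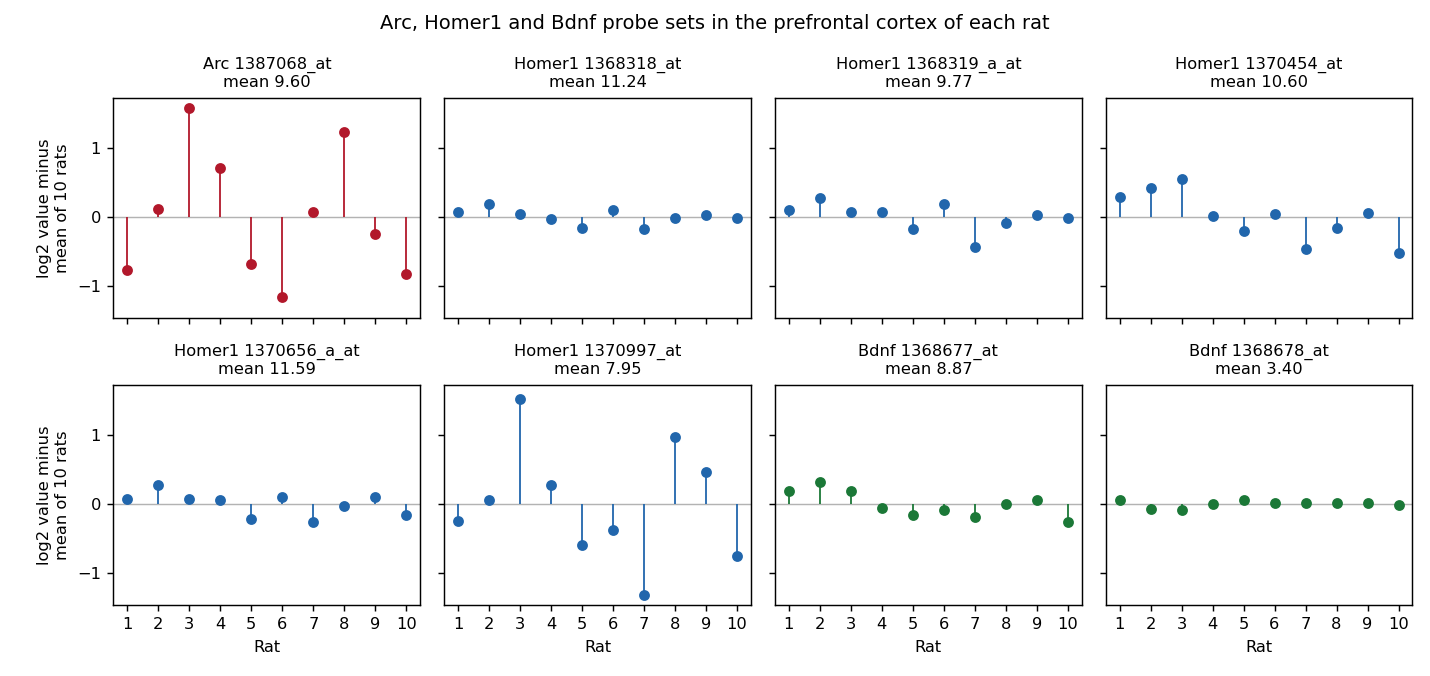
Log2 value of each member probe set in each of the 10 rats, as the difference from that probe set's mean (vertical axis, log2; horizontal axis, rat number), 1 panel per probe set. Arc and Homer1 1370997_at are highest in rats 3 and 8, and the other panels show far smaller differences.

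Bdnf moved with the Homer1 probe set of highest mean, and no relation with Arc was detected. Each gene was first represented by its brightest probe set, which gave 3 pairs over 10 rats, with two-sided permutation tests. Homer1 1370656_a_at and Bdnf 1368677_at had a Pearson r of 0.82 (permutation p = 0.00383, 0.0115 after adjustment). Spearman's rho was 0.73 (permutation p = 0.0211, 0.0634 after adjustment). Without rats 5 and 7 r was 0.80. Without rat 2 the correlation of Homer1 and Bdnf was 0.73 (exact permutation test, adjusted p = 0.0916). Without rats 4, 7 and 10, those of highest striatal score, r was 0.77 (exact permutation test, adjusted p = 0.104), and with the striatal score regressed out it was 0.68 (permutation test, adjusted p = 0.0825). Arc gave r = 0.16 with Homer1 (permutation p = 0.647) and 0.36 with Bdnf (permutation p = 0.306).

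All 21 pairs of the 7 probe sets were compared as well, a comparison added after the values had been seen. Homer1 1370454_at lay closest to Bdnf, at r = 0.92 (permutation p = 0.00024, 0.00126 after adjustment). Its rho was 0.94 (permutation p = 0.00021, 0.00294 after adjustment), and r was 0.90 without rats 3 and 10. In limma's fit along the Bdnf level its slope was 0.32 log2 per SD (SE 0.05, adjusted p = 0.0703). Without rats 4, 7 and 10 the r between Homer1 1370454_at and Bdnf was 0.86 (exact permutation test, adjusted p = 0.0658). Homer1 1368318_at gave r = 0.73 with Bdnf (permutation p = 0.0164, 0.0411 after adjustment), 0.50 without rats 2 and 7, and its adjusted p rose above 0.05 when any 1 rat other than 6 or 10 was left out. The other sets, 1368319_a_at at 0.64 (adjusted permutation p = 0.0752) and 1370997_at at 0.59 (adjusted permutation p = 0.116), did not pass by r. By rho 1370997_at gave 0.75 with Bdnf (permutation p = 0.0168, 0.0465 after adjustment), and its r was 0.40 without rats 3 and 7. For 1368319_a_at rho was 0.67 (adjusted permutation p = 0.0687). Among the Homer1 sets, 1368318_at, 1368319_a_at and 1370656_a_at correlated at r = 0.90 to 0.93 (adjusted permutation p from 0.00042 to 0.00119). Sets of 1 gene share its RNA and are not independent.

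Arc was close to Homer1 1370997_at alone among the Homer1 sets at the adjusted threshold, at r = 0.75 (permutation p = 0.0127, 0.0382 after adjustment). Its rho was 0.70 (permutation p = 0.0298, 0.0625 after adjustment), and limma's fit over all probe sets along the Arc level gave 0.63 log2 per SD (SE 0.18, adjusted p = 0.993). Without rats 3 and 8 together r was 0.31, and with any single rat left out it ran from 0.59 to 0.91. The r of Arc with the other Homer1 sets ran from -0.06 to 0.34, and whether these differ from 0.75 was not tested.

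**Figure D2:**
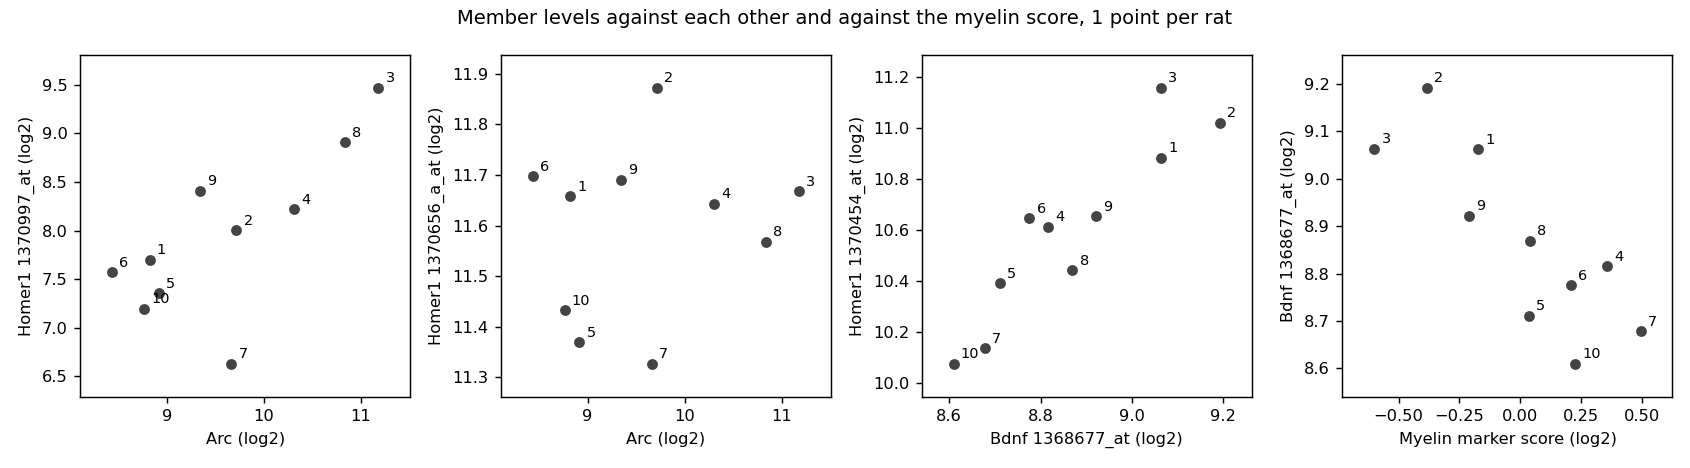
Each point is 1 rat, numbered, with log2 levels or the myelin marker score (mean centred log2 level of 13 genes) on the axes. Arc and Homer1 1370997_at rise together through rats 3 and 8, Arc and Homer1 1370656_a_at do not, Bdnf and Homer1 1370454_at lie along a line (r = 0.92), and Bdnf falls as the myelin score rises.

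The study asked which transcripts vary with behaviour among rats of 1 inbred strain. No member varied with any score at an adjusted p under 0.05 (limma, adjusted by Benjamini-Hochberg across the 15521 tested), and neither did any other probe set: 0% was called for startle, locomotion, sugar feeding, prepulse inhibition and the plus maze. At an unadjusted p under 0.05, limma gave 867 probe sets for startle (5.59%), 455 for locomotion (2.93%), 330 for sugar feeding (2.13%), 1150 for prepulse inhibition (7.41%) and 1078 for the plus maze (6.95%). Of the 7 members, 1 was under that limit for startle and 0 for each other score. Of 76 tested genes in 7 lists of activity, BDNF, Homer, AMPA receptor and Arc partner genes, 0 were called with any score, and for startle 4 had an unadjusted p under 0.05 (1 with a positive slope, as for 1.67% of genes, and 3 with a negative one, as for 3.47%).

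The member under the unadjusted limit was Bdnf 1368677_at, at -0.13 log2 per SD of the startle score (SE 0.05, limma p = 0.0248, adjusted p = 0.808). Rats 1 and 2, among its 3 highest, had the lowest startle scores, 394 and 363, against a highest score of 943 in rat 7. Left-out rats moved the slope between -0.15 and -0.081. All 7 members had a negative slope with startle, as did 58.7% of genes: Arc -0.19 (SE 0.28), Homer1 1370997_at -0.24 (0.25), Homer1 1370454_at -0.19 (0.09), Homer1 1370656_a_at -0.09 (0.05). The standard errors of the Arc and 1370997_at slopes exceed the slopes themselves.

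For prepulse inhibition 5 of the 7 members had a negative slope and 2 a positive one, a difference in sign that was not tested. Bdnf was -0.11 (SE 0.05, limma p = 0.0571, adjusted p = 0.687) and Homer1 1370454_at -0.18 (0.10), while Arc was 0.17 (0.28) and Homer1 1370997_at 0.07 (0.26). With locomotion Arc gave 0.18 (0.28), Homer1 1370454_at 0.14 (0.10) and Bdnf 0.07 (0.06). With sugar feeding Arc gave 0.22 (0.28), Homer1 1370454_at 0.12 (0.11) and Bdnf 0.07 (0.06). With the plus maze score, in 7 rats, Arc gave -0.24 (0.29) and Bdnf -0.05 (0.08).

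**Figure D3:**
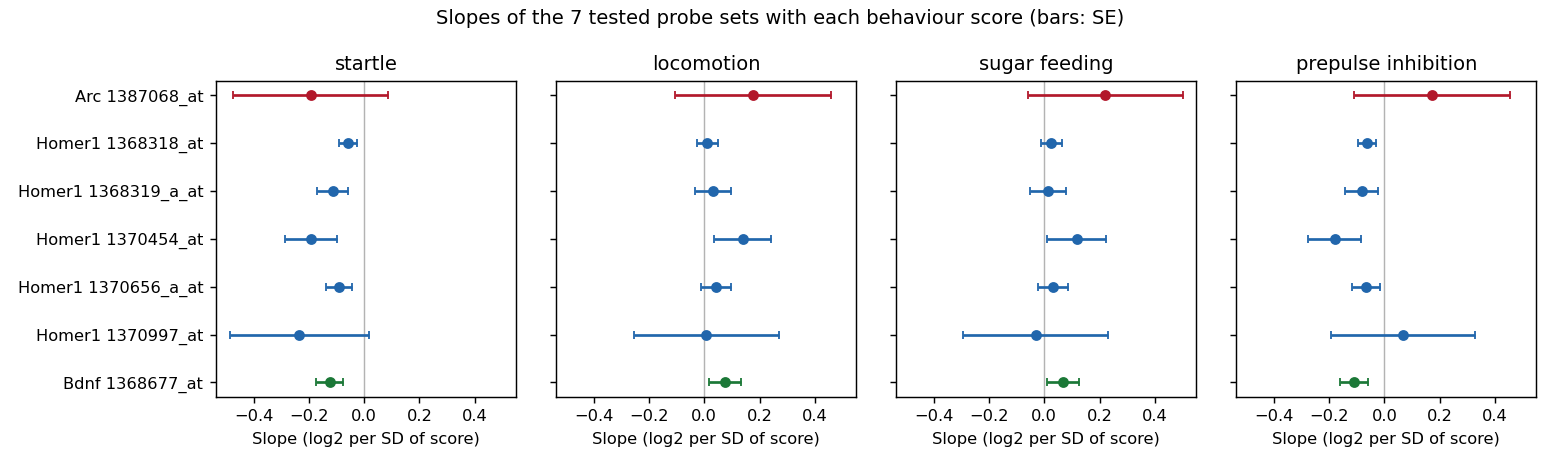
Slope of each tested member probe set (log2 per SD of the score, horizontal axis) with startle, locomotion, sugar feeding and prepulse inhibition over 10 rats; bars are the SE from limma. No slope passed the adjusted threshold; Bdnf with startle, at -0.13, was the 1 slope with an unadjusted p under 0.05.

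Of the 4 probe sets called along the Arc level, 3 belong to genes on the lists of activity-induced genes. These lists were chosen with earlier results of these data known, so the overlap and the list counts below are no independent support. Fitted against the Arc level scaled to an SD of 1, 4 of 15520 probe sets were called (0.0258%), all with a positive slope, and 448 (2.89%) had an unadjusted p under 0.05. The called ones were Dusp1, a phosphatase that switches off MAP kinases, at 0.69 log2 per SD (SE 0.05, limma adjusted p = 0.00106), Nr4a1, a nuclear receptor, at 0.69 (0.06, adjusted p = 0.00425), Junb, an AP-1 subunit, at 0.65 (0.07, adjusted p = 0.0165), and Klf2, a zinc finger factor, at 1.27 (0.16, adjusted p = 0.0486). Dusp1 read 8.70 to 10.65, with 10.65 and 10.52 in rats 3 and 8, and Nr4a1 8.78 to 10.70, with 10.70 and 10.43 there. Junb read 9.01 and 9.11 in these rats against a lowest value of 7.31. Klf2 read 5.99 and 6.75 in rats 3 and 8, but 3.03 to 3.17 in rats 1, 5, 6 and 10, below the lowest array median of 3.92. Without rats 4, 7 and 10, 0 probe sets were called (718 at an unadjusted p under 0.05), and 2 were called without rat 3, 6 or 8.

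Of the 18 listed activity-induced transcription factors, 11 were tested. All 11 had a positive slope with Arc, against 32.8% of genes (10 of 11 without rats 4, 7 and 10). Of them, 2 were called, against 0.0472% of genes, and 9 had an unadjusted p under 0.05, a share reached with a positive slope by 1.11% of genes. Their median slope was 0.31, against -0.017 over all tested probe sets. Beside Nr4a1 and Junb, Fosb gave 0.35 (SE 0.06, limma adjusted p = 0.261), Egr2 0.67 (0.15, adjusted p = 0.898), Nr4a3 0.23 (0.05, adjusted p = 0.898) and Fos 1.03 (0.31, adjusted p = 0.993). Fos ran from 4.91 in rat 10 to 9.66 in rat 8. Egr1 was at 0.06 (0.09).

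Of 16 other activity-induced genes tested, 13 had a positive slope with Arc, against 32.8% of genes. Of them 1, Dusp1, was called, against 0.0472% of genes. Dusp1, Dusp6, Tiparp, Ptgs2 and Sik1 had an unadjusted limma p under 0.05 with a positive slope, against 1.11% of genes. Dusp6, a phosphatase of ERK, was at 0.22 (SE 0.05, limma adjusted p = 0.898). No gene was called in the lists of Arc partners (9 tested), Homer partners (10), BDNF and TrkB signalling (13), pentraxins and AMPA receptors (9) or upstream signalling (8). Camk2a, a kinase subunit that partners Arc, was at -0.16 (0.05, limma adjusted p = 0.993). Myelin markers had a negative slope with Arc in 13 of 13, against 67.2% of genes, and 1 had an unadjusted p under 0.05, against 1.77%. The r of Arc with the myelin score was -0.33 (permutation p = 0.358) and with the striatal score 0.12 (permutation p = 0.753).

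By the likeness of patterns over 10 rats, the 5 genes of highest r with Arc were Dusp1 (0.976), Nr4a1 (0.962), Ehbp1l1 (0.960), Junb (0.946) and Klf2 (0.925), and the 3 of lowest r were Washc1 (-0.924), Acbd6 (-0.878) and Gnb1 (-0.876). These are descriptions, picked from 8482 genes. Washc1 ran only from 3.94 to 4.22, near the lowest mean kept (3.99), Acbd6 from 7.24 to 7.44 and Gnb1 from 14.10 to 14.50.

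The activity-induced transcription factors also had positive slopes along Homer1 1370997_at. Along its level 0 of 15515 probe sets were called by limma (1120 at an unadjusted p under 0.05). Of the 11 transcription factors, 11 had a positive slope, against 33.8% of genes, and 9 an unadjusted p under 0.05, against 1.59% of genes with a positive slope. Nr4a1 was at 0.55 (SE 0.15) and Nr4a3 at 0.22 (0.06), and Ptgs2, the inducible cyclooxygenase, at 0.18 (0.04), each with an adjusted limma p of 0.639. The gene of highest r, chosen after its values were seen, was Kdm6b, a histone demethylase (0.949). Because this level was set beside that of Arc, with which it shares rats 3 and 8, these counts are no separate support.

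The Homer1 set of highest mean, 1370656_a_at, gave 0 called of 15515 probe sets (2111 at an unadjusted p under 0.05, 13.6%) and 0 of 11 transcription factors at an unadjusted p under 0.05. Of the postsynaptic lists, 4 of 10 Homer partners and 4 of 9 pentraxin and AMPA receptor genes had an unadjusted p under 0.05 with a positive slope, against 9.22% of genes. Along the same level all 9 striatal markers had a negative slope, against 40.3% of genes, and 7 an unadjusted p under 0.05, against 3.31% of genes with a negative slope. Drd1 was at -0.99 (SE 0.31, limma adjusted p = 0.264). The striatal score gave r = -0.67 with this set (permutation p = 0.0310, 0.130 after adjustment). Of 13 myelin markers, 13 had a negative slope and 7 an unadjusted p under 0.05. Their part in these counts was not tested. Shank1, a postsynaptic scaffold, was at 0.14 (SE 0.04, limma adjusted p = 0.220), Ryr2, a calcium release channel that Homer binds, at 0.14 (0.03, adjusted p = 0.216) and Nptxr, the pentraxin receptor, at 0.10 (0.03, adjusted p = 0.229). The 5 genes of highest r were Cask (0.942), L1cam (0.932), Lingo1 (0.920), Pex5l (0.912) and Uxs1 (0.905), and the 3 of lowest r Tnfaip8l3 (-0.910), Ercc6l2 (-0.898) and Commd9 (-0.897).

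Along the Bdnf level, 4 of 15520 probe sets were called (0.0258%), and 2145 (13.8%) had an unadjusted p under 0.05. The 2 named ones fell as Bdnf rose: Fa2h, which hydroxylates fatty acids of myelin lipids, at -0.32 (SE 0.03, limma adjusted p = 0.0186) and Mdm2, the p53 ubiquitin ligase, at -0.19 (0.02, adjusted p = 0.0371). Fa2h was lowest in rat 2, at 9.16, and highest in rat 7, at 10.21. The count moved from 0 to 285 as single rats were left out: it was 0 without rat 1, 2 or 3, 285 without rat 5, 2 without rat 4, 7 or 8, and 1 without rat 9 or 10. It was also 0 with the striatal score as a covariate, without rats 4, 7 and 10, and on ranks of the level, 1 after median centring and 138 after quantile normalization.

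Markers of myelin ran against Bdnf as a group. All 13 tested had a negative slope, against 50.6% of genes, and all 13 an unadjusted p under 0.05, against 5.22% of genes with a negative slope; 1, Fa2h, was called, against 0.0236% of genes. Their median slope was -0.29, against 0.0045 over all tested probe sets. Ugt8, of galactolipid synthesis, was at -0.42 (SE 0.08, limma adjusted p = 0.110). The myelin score gave r = -0.83 with Bdnf (permutation p = 0.00333, adjusted over 42 pairs 0.0694) and r = -0.82 without rats 3 and 7. Its rho was -0.83 (adjusted permutation p = 0.0594). The mean log2 level of the tested probe sets with no symbol gave r = 0.81 with Bdnf (permutation p = 0.00496, 0.0694 after adjustment) and 0.59 without rats 1 and 2, and gave r = 0.72 with Homer1 1370454_at (permutation p = 0.0179, 0.130 after adjustment). All 9 striatal markers also had a negative slope, 7 with an unadjusted p under 0.05. With the striatal score as a covariate 3 of 13 myelin markers had an unadjusted p under 0.05, and without rats 4, 7 and 10, 9 did. Homer1 1370454_at gave r = -0.83 with the myelin score (permutation p = 0.00313, adjusted 0.0694), and 13 of 13 myelin and 9 of 9 striatal markers had a negative slope with an unadjusted p under 0.05, against 5.54% of genes. The part of myelin and striatal RNA, or of a shift across the array, in the Bdnf and Homer1 levels was not tested.

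No gene of the 7 pathway lists was called along Bdnf (0 of 76, with 13 at an unadjusted p under 0.05 by limma, beside 13.8% of all tested probe sets). Grm5, a metabotropic glutamate receptor that Homer binds, was at 0.16 (SE 0.03, limma adjusted p = 0.113), Gria3, an AMPA receptor subunit, at 0.13 (0.04, adjusted p = 0.191), Egr1 at 0.21 (0.07, adjusted p = 0.187) and Per1, a clock gene, at -0.30 (0.08, adjusted p = 0.141). Ntrk2, which encodes TrkB, was at 0.07 (0.03, adjusted p = 0.366). The 5 genes of highest r with Bdnf were Gpatch8 (0.957), Hook3 (0.912), Cisd2 (0.911), Dnajb14 (0.908) and Magi1 (0.901), and the 3 of lowest r were Mdm2 (-0.972), Fa2h (-0.965) and Lgi3 (-0.955).

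**Figure D4:**
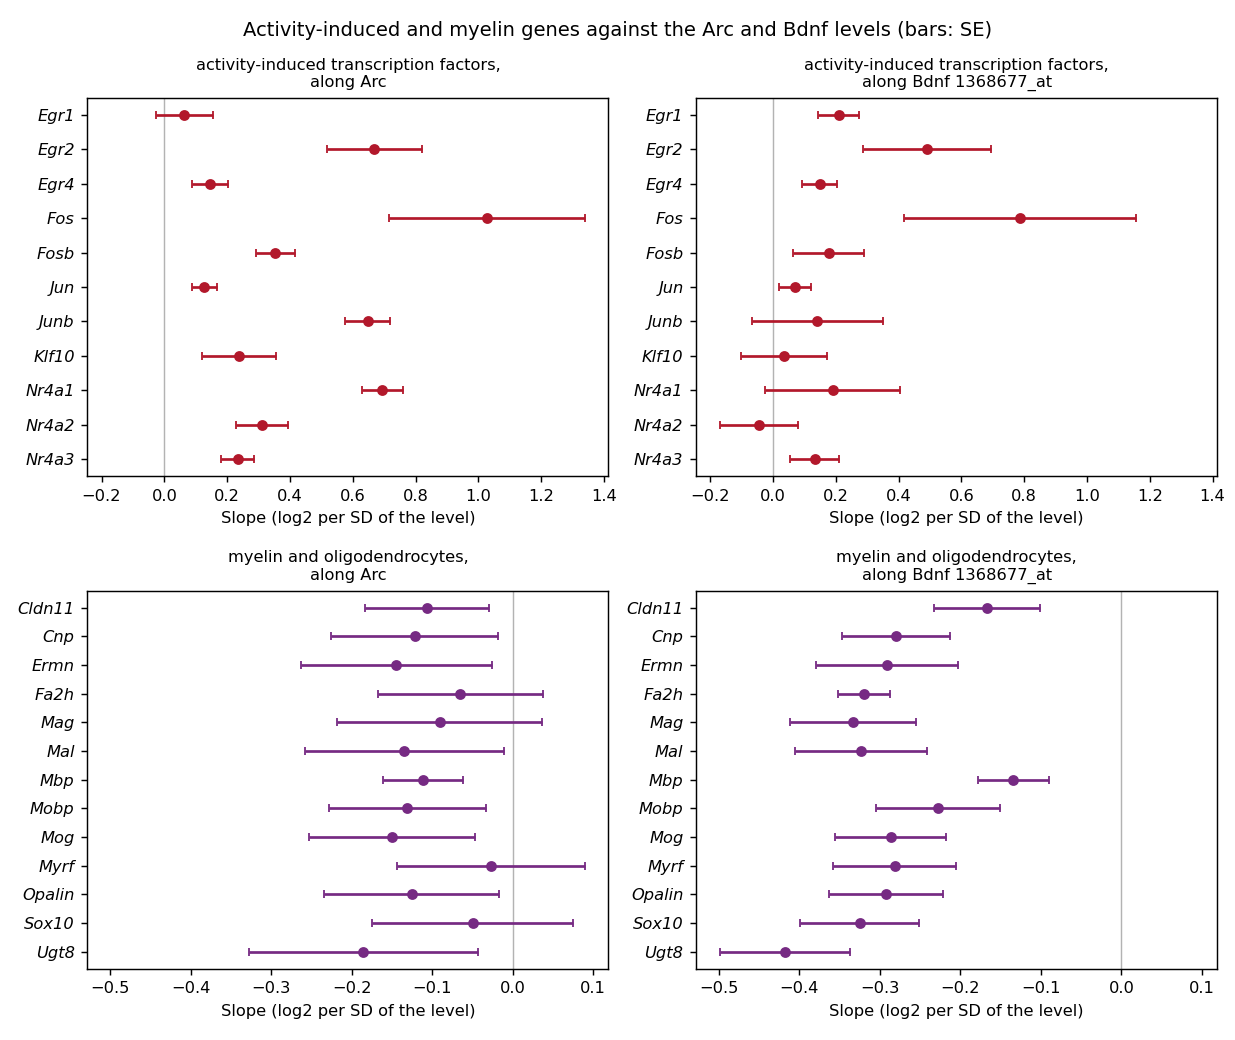
Slopes of 11 activity-induced transcription factors (top) and 13 myelin markers (bottom) along the Arc level (left) and the Bdnf level (right), in log2 per SD of the level; bars are the SE from limma. The transcription factors lie above 0 along Arc, and the myelin markers lie below 0 along both, further along Bdnf, a difference that was not tested.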

How the data were processed

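The authors deposited 1 log2 value per probe set and rat, made with GCRMA (version not given in the sources used here) under R 2.6.2, per the submitters' processing notes. GCRMA corrects background by probe sequence, normalises by quantiles and summarises probes, so differences in overall RNA between rats cannot be read from the values. Differences between arrays remained in the deposited values. The mean log2 level of the tested probe sets with no symbol ran from 7.50 in rat 10 to 7.76 in rat 1. Control probe sets were left out and the 50% of highest mean kept (15521 of 31042, mean log2 at least 3.99). Genes were named from the platform annotation.

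Each score or member level was scaled to an SD of 1 and entered a linear model of the log2 values (lmFit and eBayes of limma 3.58.1, R 4.3.3), two-sided, with Benjamini-Hochberg adjustment over all tested probe sets and a threshold of 0.05. A called probe set has an adjusted p under 0.05. The fit was tested on simulated data. Counts over genes took 1 probe set, the brightest on average, for each of 8483 genes. Correlations used 100000 permutations for 10 rats and exact enumeration for fewer. Probe sets of a gene were left out of the fit along its own level. The number of arrays limits the precision, and each rat gave 1 array, so the spread between rats includes that of the assay.

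The members and lists were chosen with earlier results of these data known. Named genes were the members, the 5 genes of highest and 3 of lowest r with each gene's set of highest mean, and the 2 genes of smallest p per list along each level, of which a selection is given; other names, such as Fos, Egr2 and Kdm6b, were chosen after their values were seen. Planned Nptx2 fits were not run, since no probe set was annotated to it alone. Alternatives were other filters and scalings, ranks, a striatal covariate, 4 scores in 1 model and left-out rats.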

Additional observations from a re-analysis of the deposited data

How the results depend on the processing

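No paired analysis was possible because the animals form 1 group and have a single array apiece. All counts of called probe sets with behaviour scores stayed at 0 except locomotion without the 3 rats of highest striatal score (1). Along Arc, 2 were called with no filter, 1 on ranks, 0 without those 3 rats, and 2 to 4 with single rats left out. Along Bdnf, 7 were called with no filter, 29 in the upper 25% by mean and 138 after quantile normalization (70 higher and 68 lower). The count was 1 after median centring, 0 on ranks, 0 with the striatal covariate, 0 without those 3 rats, and 0 to 285 with single rats left out. It was 88 with the mean of all Bdnf sets, which includes 1368678_at (3.32 to 3.46), a set that did not pass the filter. The Homer1 and Bdnf correlation was 0.68 on striatal residuals, 0.77 without those 3 rats, 0.59 with the level from 1370997_at and 0.73 to 0.90 with single rats left out, and Arc and Homer1 gave 0.75 with 1370997_at. The causes were not tested.

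Member slopes that changed sign, none of them called in any setting, were as follows. With startle, Homer1 1370997_at was 0.035 without the 3 rats. With locomotion, 1368318_at was -0.012 after quantile normalization and -0.047 with 4 scores in 1 model, where 1368319_a_at was -0.033, Bdnf -0.0050, 1370656_a_at -0.024, 1370997_at -0.59 and Arc -0.82; without the 3 rats Arc was -0.12 and 1370997_at -0.12, and 1370997_at was -0.011 after quantile normalization, -0.0014 after median centring and -0.036 on ranks. With sugar feeding, 1368319_a_at was -0.0053 after quantile normalization, -0.0084 on ranks and -0.050 with 4 scores, where Bdnf was -0.0035, 1370454_at -0.065, 1370656_a_at -0.0027 and 1370997_at 0.50; 1370997_at was 0.062 with the striatal covariate and 0.24 without the 3 rats. With the plus maze on ranks, 1368319_a_at was 0.0082, 1370454_at 0.024 and 1370997_at 0.19, and 1370454_at was 0.017 after quantile normalization.

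With single rats left out, slopes ran for locomotion from -0.00029 to 0.023 (1368318_at) and -0.11 to 0.12 (1370997_at). For sugar feeding they ran from -0.014 to 0.062 (1368318_at), -0.036 to 0.095 (1368319_a_at), -0.021 to 0.087 (1370656_a_at) and -0.26 to 0.20 (1370997_at), and for prepulse inhibition from -0.061 to 0.22 (1370997_at). For the plus maze they ran from -0.090 to 0.0019 (1368318_at), -0.10 to 0.070 (1368319_a_at), -0.088 to 0.0080 (Bdnf), -0.076 to 0.10 (1370454_at), -0.11 to 0.038 (1370656_a_at), -0.23 to 0.30 (1370997_at) and -0.36 to 0.12 (Arc). Arc with 1368318_at gave r = 0.39 after quantile normalization, 0.073 after median centring, 0.093 on striatal residuals, 0.0050 without the 3 rats, and -0.18 to 0.14 with single rats left out. Arc with 1368319_a_at gave 0.018, 0.0017, 0.033 in the first 3 of these and -0.17 to 0.096 with single rats left out. Homer1 1368319_a_at with 1370997_at gave -0.037 without the 3 rats.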
